A study of Homo sapiens with 15 samples.

Results

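The hexosamine pathway and the enzymes of protein glycosylation were examined as a group of 38 genes chosen by symbol for their known roles. No measured value entered the rule, but the genes were chosen with earlier results of these data known. Of the 38 genes, 37 were among the 17272 genes of the LNCaP expression table. GALNT4 had no row, and its annotated exons share 5029 bases with the read-through gene POC1B-GALNT4. LNCaP is an established, androgen-responsive human prostate cancer cell line. The cells were starved of androgen for 2 days in medium with charcoal-stripped serum. They were then given 1 nM R1881, a synthetic androgen, either with DMSO (10 libraries) or with 2 µM enzalutamide, an antiandrogen (5 libraries), and polyadenylated RNA was sequenced after 22 h. All 15 libraries therefore received R1881, and no library without androgen was compared here. The DMSO is named in the labels of the R1881 libraries, and the vehicle of the enzalutamide libraries is not given. The libraries come from a single cell line at a single dose and time. The labels of the enzalutamide libraries also carry the word 'high' before the drug name, and its meaning is not given. The study's methods call the replicates biological, and neither they nor the labels say whether each was a separate culture, so the p-values measure the spread between these libraries.

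The hexosamine pathway turns the glycolytic intermediate fructose 6-phosphate into UDP-N-acetylglucosamine (UDP-GlcNAc), the donor sugar for N-glycans, for O-glycan branches and for the single O-GlcNAc that OGT places on nuclear and cytosolic proteins. In the endoplasmic reticulum the oligosaccharyltransferase transfers a preassembled glycan from a lipid to asparagine, and Golgi enzymes then trim, branch, galactosylate, fucosylate and sialylate it. Mucin-type O-glycans start when a GALNT enzyme adds N-acetylgalactosamine (GalNAc) to serine or threonine, and are then extended or capped with sialic acid. Secretory prostate epithelium makes large amounts of glycoprotein, among them prostate-specific antigen and prostatic acid phosphatase.

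The promoter sequences below are shown for the members at both ends of the hexosamine pathway's range of differences, UAP1 and GFPT1, and for NANS, the member whose window held a core of the unfolded protein response element. They are RefSeq sequences of build GRCh38.p14, printed 5′ to 3′ on the strand of the gene, upstream of the start and outside any annotated exon. Capitals mark CCAAT, which reads ATTGG where it lies on the opposite strand, and TGACGTGG.
UAP1, chr1:162561309-162561530, plus strand: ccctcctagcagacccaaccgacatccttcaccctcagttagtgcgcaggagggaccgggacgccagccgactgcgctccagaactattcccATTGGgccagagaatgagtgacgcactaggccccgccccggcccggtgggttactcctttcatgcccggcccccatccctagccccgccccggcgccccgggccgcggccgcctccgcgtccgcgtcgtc
GFPT1, chr2:69387251-69387477, minus strand: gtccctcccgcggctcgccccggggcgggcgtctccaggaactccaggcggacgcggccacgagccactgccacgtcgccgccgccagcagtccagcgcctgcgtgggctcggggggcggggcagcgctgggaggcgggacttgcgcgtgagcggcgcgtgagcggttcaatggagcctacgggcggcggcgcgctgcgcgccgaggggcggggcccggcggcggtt
NANS, chr9:98056482-98056731, plus strand: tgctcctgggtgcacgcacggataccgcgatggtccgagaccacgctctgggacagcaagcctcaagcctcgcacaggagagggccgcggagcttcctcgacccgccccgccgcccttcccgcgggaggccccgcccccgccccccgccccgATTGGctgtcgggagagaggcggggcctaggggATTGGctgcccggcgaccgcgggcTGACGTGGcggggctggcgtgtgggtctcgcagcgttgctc

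Windows of 300 bases, from 250 before to 50 after the start, were held for 32 of the 37 members and were searched on both strands. Each of these members had 1 window, at a RefSeq start that can lie away from the gene start given elsewhere here. The upstream part for GALNT2, at chr1:230066988-230067237, lay inside the gene, which starts at 230057990. The windows of the background were counted whether or not their gene was in the expression table. CCAAT was found in 15 of the 32 member windows (46.9%) and in 34.6% of all 35116 windows. It lay at -130 in UAP1, at -50 in PGM3 and at -98 and -65 in NANS, counted to the first base of the match. The letters TGACGTGG were found in 1 member window, NANS at -41 (3.12% of members, 0.729% of all windows). The androgen response element half-site AGAACA was found in 6 member windows (18.8% against 14.8% of all windows), those of NANS, DAD1, MAGT1, FUT8, C1GALT1C1 and GCNT2. The full androgen response element (AGAACA, 3 bases of any kind, TGTTCT) and the ER stress response element (CCAAT, 9 bases of any kind, CCACG) were in none of the 32 windows, and in 0.00285% and 0.0769% of all windows. The CCAAT of a full ER stress element is also a CCAAT match. A match describes the letters of these windows only, and elements outside them were not searched.

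Of the 37 members tested, 25 were lower and 7 higher with enzalutamide, and 5 did not pass the test (limma on log2(CPM + 0.5), where CPM is the deposited normalised read count, Benjamini-Hochberg adjusted p under 0.05 over 17046 genes). The share called was 86.5%, against a background of 62.5% of all genes tested. With R1881, 30 of the 37 members lay above the median level per kilobase of genes with a length. Shares among genes of similar level were not computed. The lower calls took 67.6% of the members against 32.7% of all genes, and the higher calls 18.9% against 29.8%. The libraries of the 2 treatments did not overlap for 30 members (81.1%, all genes 37.2%), 24 of them lower (all genes 20.1%) and 6 higher (all genes 17.1%). Overlap was judged throughout on the deposited values, whose column sums were larger in every R1881 library than in every enzalutamide library. It was not counted at equal totals, where small differences may overlap. A difference of at least 1.5-fold was found for 12 members that were lower (all genes 9.55%) and 4 that were higher (all genes 9.06%). The median log2 fold change was -0.38 over the members and -0.01 over all genes, and the median absolute log2 fold change was 0.54 and 0.244. On this scale the differences were largest at the sialyltransferase ST6GALNAC1 and at UAP1 of the hexosamine pathway, although the median of the weakly expressed GALNT12 was lower by 85.4%, against 81.6% for UAP1. The 9 oligosaccharyltransferase subunits among the members were all called lower.

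**Figure D1:**
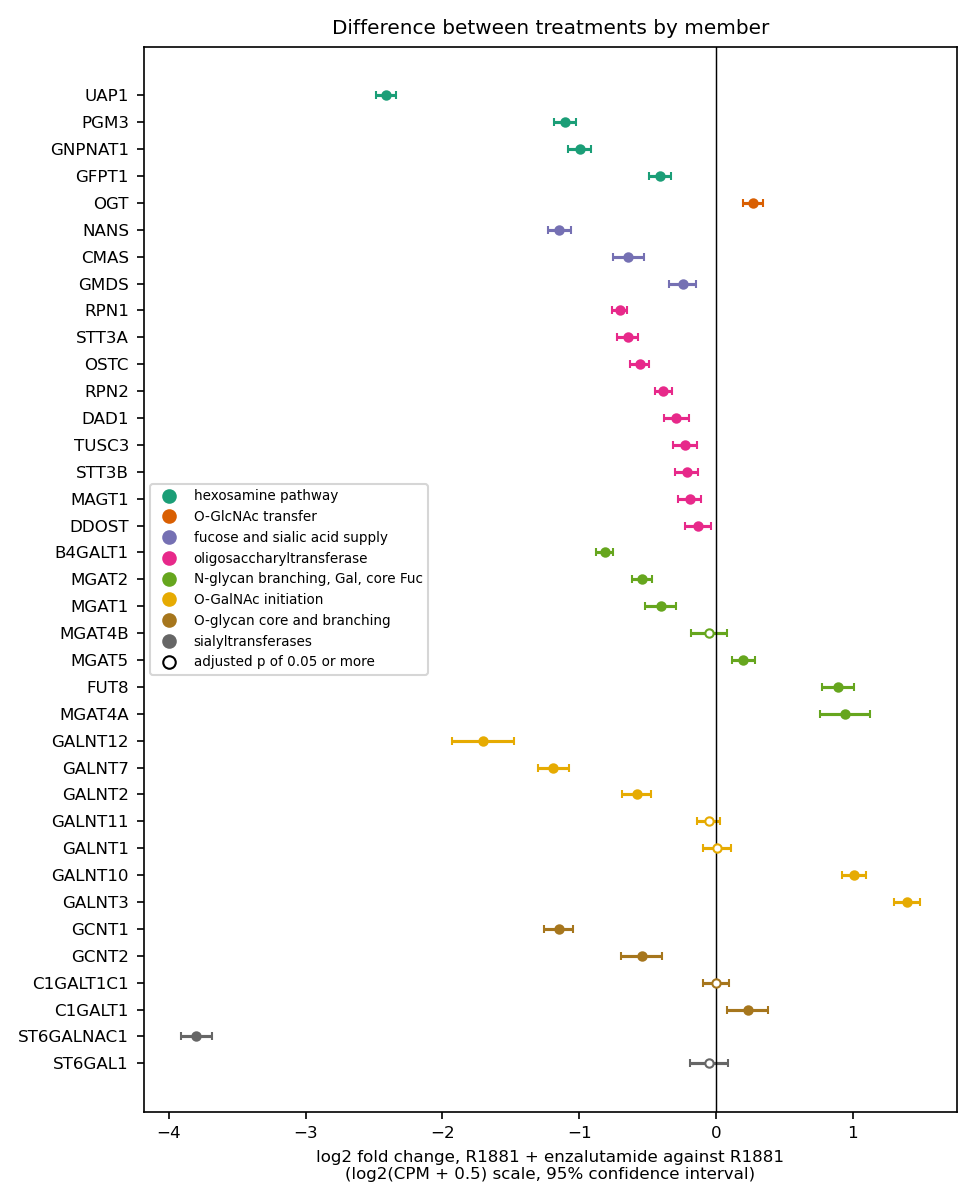
Log2 fold change of each of the 37 members, R1881 + enzalutamide (n = 5) against R1881 (n = 10), with its 95% confidence interval, on the log2(CPM + 0.5) scale. Filled points passed the adjusted threshold, and the colours give the role, from the 4 lower hexosamine enzymes at the top to ST6GALNAC1 at -3.80 near the bottom.

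Known androgen-responsive genes were measured first as a check on the labels. KLK3, which encodes prostate-specific antigen, fell from 1588 ± 209 CPM (SD, n = 10) to 134 ± 7.66 CPM (n = 5), and KLK2, TMPRSS2 and FKBP5 fell as well, with log2 fold changes of -4.87, -3.56 and -4.99. The recovered depth was 15830745 to 24316740 reads per library with R1881 and 21188661 to 25416052 with enzalutamide. Of the 6 luminal prostate markers reported, 5 were lower, these being KLK3, KLK2, TMPRSS2 and the keratins KRT8 and KRT18 (log2 fold changes -2.18 and -2.05), while HOXB13 was higher with overlap (log2 fold change 0.16, adjusted p = 0.0210). Markers of other cell types were few: 1 of 3 basal, 1 of 3 neuroendocrine, 1 of 3 endothelial and 0 of 4 leukocyte markers had a row. The basal marker KRT14 was at 0.706 to 1.44 CPM with R1881 and 0 to 0.279 CPM with enzalutamide, the neuroendocrine marker SYP at 1.32 to 2.10 and 0.988 to 1.14 CPM, and the endothelial marker VWF at 2.08 to 2.84 and 2.84 to 3.35 CPM. Of 5 fibroblast markers 3 had a row, and all 3 were higher with enzalutamide, with a summed level of 6.36 to 10.5 CPM with R1881 and 21.2 to 26.7 CPM with enzalutamide. The part of these markers in the member differences was not tested. All libraries are of a single cell line, and in bulk RNA a change in all its cells and a change in a part of them cannot be told apart.

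The library numbers in the labels form the series 51 to 55 and 71 to 75 with R1881 and 81 to 85 with enzalutamide, and their meaning is not given. No series holds both treatments, so series and treatment cannot be told apart. Against each R1881 series alone, all 32 called members kept their direction. All 32 kept their call against series 71 to 75 and 30 kept it against series 51 to 55, where DDOST (adjusted p = 0.232) and C1GALT1 (adjusted p = 0.1005) did not pass in limma.

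All 4 members of the hexosamine pathway were lower with enzalutamide (all genes 32.7%). In none of the 4 did the treatments overlap (all genes 20.1% lower without overlap). The median log2 fold change of the 4 was -1.05. UAP1, which makes UDP-GlcNAc in the last step (chr1:162561722-162601240, plus strand, GRCh38, 11 exons in the canonical transcript), ranged from 384 to 455 CPM with R1881, with a median of 427 CPM. The 5 enzalutamide libraries held 82.9, 76.8, 81.6, 78.7 and 78 CPM. Every enzalutamide library lay far under every R1881 library, with a spread of a few CPM among them, and the median was lower by 81.6%. The log2 fold change of UAP1 was -2.41 (SE 0.036, adjusted p = 3.88e-22), rank 102 from the lowest of 17046 genes.

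PGM3 moves the phosphate of N-acetylglucosamine 6-phosphate to the form that UAP1 uses (chr6:83147324-83193936, minus strand). It had a range of 129.7 to 145 CPM (median 141) with R1881 and held 66.7, 60.3, 66, 64.2 and 63.3 CPM in the enzalutamide libraries, a log2 fold change of -1.10 (SE 0.039, adjusted p = 7.52e-16). GNPNAT1, the acetyltransferase of the step before (chr14:52775193-52791668, minus strand), ranged from 142 to 169 CPM (median 161) with R1881, against 81.4, 74.6, 79.2, 79 and 83.2 CPM with enzalutamide, a log2 fold change of -0.99 (SE 0.041, adjusted p = 8.94e-15). Both genes thus differed by close to 1 on the log2 scale, and the treatments did not overlap. GFPT1 commits fructose 6-phosphate to the pathway and is its rate-limiting enzyme (chr2:69319780-69387250, minus strand). Its R1881 libraries ranged from 189 to 223 CPM (median 214), and its enzalutamide libraries held 164, 146, 153, 168 and 165 CPM. GFPT1 showed the smallest difference of the 4, a log2 fold change of -0.41 (SE 0.04, adjusted p = 1.33e-08). The lowest R1881 library (replicate 6) was still above the highest enzalutamide library.

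Isoenzymes that are no members were measured for both ends of the pathway, and are named here after their values were seen. GFPT2, which catalyses the same committed step as GFPT1, differed the other way at a low level. It was at 0.529 to 1.41 CPM (median 0.933) with R1881 and 1.53 to 2.25 CPM with enzalutamide, without overlap (log2 fold change 0.68, adjusted p = 2.09e-04). UAP1L1, a paralog of UAP1, was not called, at 27.8 ± 2.68 CPM with R1881 and 28.9 ± 3.03 CPM with enzalutamide (log2 fold change 0.05, adjusted p = 0.532).

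**Figure D2:**
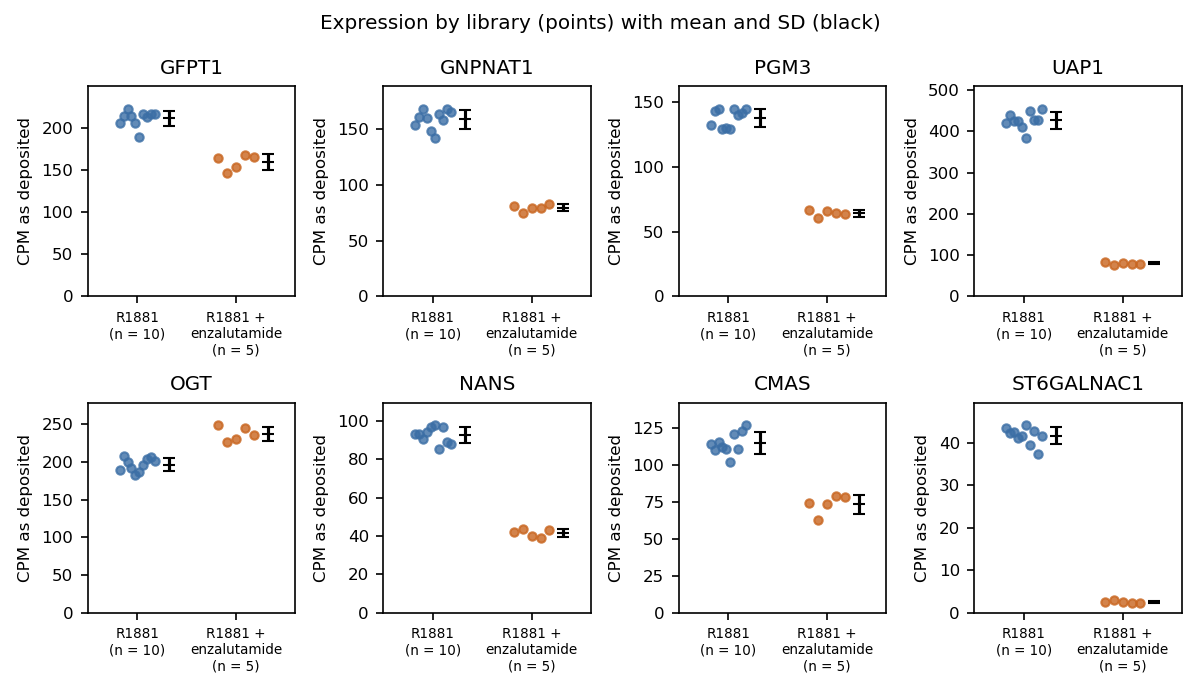
CPM as deposited of 8 members in each library (points), with the mean and SD in black, for R1881 (n = 10) and R1881 + enzalutamide (n = 5). The treatments are apart in each panel, downwards for all members shown except OGT, and UAP1 and ST6GALNAC1 show the widest gaps.

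OGT, which uses UDP-GlcNAc to modify nuclear and cytosolic proteins (chrX:71533087-71575892, plus strand), differed the other way. It ranged from 182 to 208 CPM (median 198) with R1881 and held 249, 226, 230.0, 245 and 236 CPM with enzalutamide. All 5 enzalutamide libraries were above all R1881 libraries, with a log2 fold change of 0.27 (SE 0.036, adjusted p = 1.56e-06). OGA, which removes the same sugar and has the older symbol MGEA5 in the table, is no member. Its median of 228 CPM compared with 309 CPM under enzalutamide (log2 fold change 0.40). The ratio of OGT to OGA within a library was 0.858 on average with R1881 and 0.785 with enzalutamide. The difference of -0.13 on the log2 scale passed the exact two-sided permutation test over libraries (p = 0.0173, adjusted p = 0.0202 over 7 ratios), although the libraries overlapped. It did not pass against R1881 series 51 to 55 alone (difference -0.03, exact permutation adjusted p = 0.238), nor without enzalutamide replicate 5 (difference -0.12, exact permutation adjusted p = 0.0583). The pairs behind all 7 ratios were chosen with earlier results of these data known, so the p-values of the ratios are no independent support.

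The 3 members that supply fucose and sialic acid were lower (all genes 32.7%). NANS, which makes the phosphorylated precursor of sialic acid (chr9:98056732-98083077, plus strand), ranged from 85.7 to 98 CPM (median 93.4) with R1881. Its enzalutamide libraries held 42.4, 43.8, 40.1, 38.9 and 42.9 CPM, less than the lowest R1881 library in each case, and its log2 fold change was -1.14 (SE 0.04, adjusted p = 5.99e-16). CMAS, which activates sialic acid to CMP-sialic acid, went from 115 ± 7.34 CPM to 73.7 ± 6.48 CPM (log2 fold change -0.64, adjusted p = 1.25e-09). GMDS, the first enzyme of GDP-fucose synthesis from GDP-mannose, showed the smallest difference of the 3, from 21 ± 0.837 to 17.7 ± 1.10 CPM (log2 fold change -0.24, adjusted p = 1.61e-04). The libraries of the treatments did not overlap for any of the 3 in the deposited values (all genes 20.1% lower without overlap). For GMDS the nearest libraries were at 19.8 and 19.4 CPM, so its lack of overlap rests on the deposited scaling.

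All 9 members that are subunits of the oligosaccharyltransferase were lower (all genes 32.7%), with a median log2 fold change of -0.29. The treatments did not overlap for 8 of the 9 (all genes 20.1% lower without overlap). RPN1, a structural subunit, ranged from 406 to 445 CPM (median 421) with R1881 and held 264, 256, 262, 257 and 264 CPM with enzalutamide, a log2 fold change of -0.70 (SE 0.027, adjusted p = 3.79e-15). STT3A, the catalytic subunit of the complex that works during translation, ranged from 359.8 to 406 CPM (median 371) with R1881. Its enzalutamide libraries held 253, 226, 242, 245 and 237 CPM, a log2 fold change of -0.65. STT3B, the catalytic subunit of the complex that acts on sites skipped during translation, ranged from 189.6 to 225 CPM (median 216) with R1881 against 189, 171, 179.5, 185 and 188 CPM with enzalutamide, a log2 fold change of -0.21. The 2 catalytic subunits were both lower without overlap in the deposited values, and the difference was larger for STT3A. For STT3B the nearest libraries were at 189.6 and 189 CPM, so its lack of overlap rests on the deposited scaling. The lack of overlap of TUSC3 (nearest libraries 70.9 and 68.4 CPM) and of MAGT1 (205 and 203 CPM) rests on it too.

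The ratio of STT3A to STT3B within a library does not depend on how library sizes were scaled. It was 1.67 to 1.92 with R1881 and 1.26 to 1.35 with enzalutamide, so the treatments were apart. The mean difference was -0.43 on the log2 scale, and its exact two-sided permutation p of 0.000666 (adjusted p = 0.00117 over 7 ratios) is the smallest that the 3003 regroupings can give. Of the members particular to each complex, OSTC, found with STT3A, went from 117 ± 3.74 to 79.1 ± 2.76 CPM (log2 fold change -0.56). KRTCAP2, also found with STT3A but no member, went the other way and was called higher with overlap, as given below. TUSC3 and MAGT1 are alternative oxidoreductase subunits found with STT3B. TUSC3 ranged from 70.9 to 82.4 CPM (median 75.5) with R1881 and held 68.4, 60.3, 63.6, 65.5 and 63.6 CPM with enzalutamide. MAGT1 ranged from 205 to 242 CPM (median 228) and held 203, 184, 191, 202 and 202 CPM with enzalutamide. Both were lower by a small amount (log2 fold changes -0.23 and -0.19), and their ratio of 0.335 with R1881 and 0.327 with enzalutamide did not pass the test (difference -0.04, exact permutation p = 0.417). Among the shared subunits, the log2 fold change was -0.38 for RPN2, -0.29 for DAD1 and -0.13 for DDOST. DDOST was the weakest call of all members (adjusted p = 0.0202, libraries overlapping) and did not pass in edgeR (adjusted p = 0.132) or with library totals set to 1000000 (limma, adjusted p = 0.527).

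**Figure D3:**
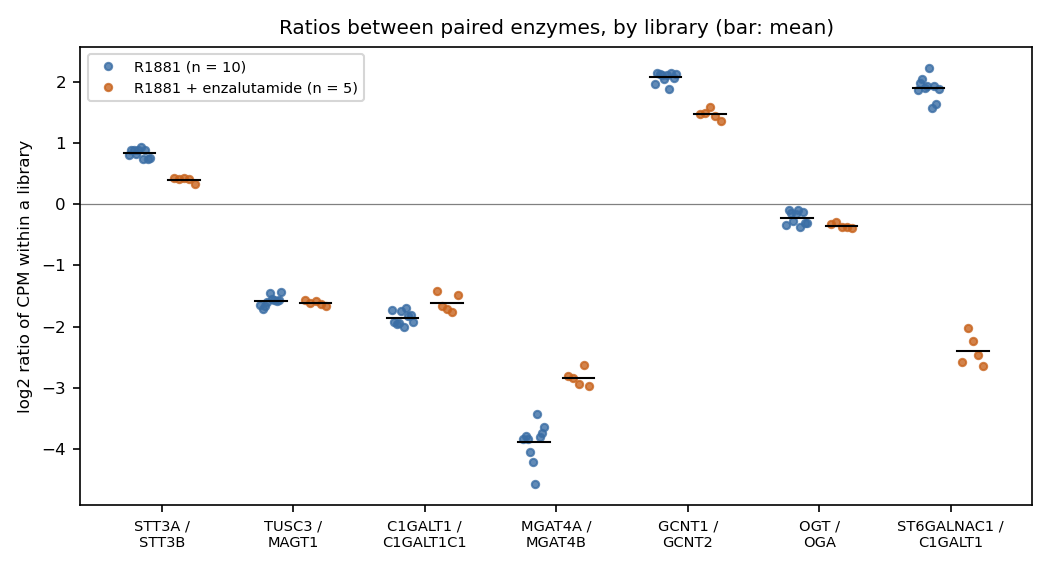
Log2 ratio of CPM between paired enzymes within each library, with R1881 (n = 10) and R1881 + enzalutamide (n = 5), where the bar is the mean. The treatments are apart for STT3A to STT3B, MGAT4A to MGAT4B, GCNT1 to GCNT2 and ST6GALNAC1 to C1GALT1, and overlap for the other pairs.

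The Golgi enzymes of N-glycan branching, galactose and core fucose went both ways, with 3 lower, 3 higher and 1 not called. The shares were 42.9% lower and 42.9% higher, against 32.7% and 29.8% of all genes. B4GALT1, which adds galactose to N-glycan antennae, had a range of 200.3 to 219.6 CPM (median 211) with R1881 and 121, 115, 118, 126 and 118 CPM with enzalutamide (log2 fold change -0.81, SE 0.03, adjusted p = 1.63e-15). MGAT1 and MGAT2 start the first and the second complex antenna. MGAT1 went from 61.7 ± 4.96 to 46.4 ± 3.07 CPM (log2 fold change -0.40) and MGAT2 from 67.5 ± 2.24 to 46.3 ± 0.982 CPM (log2 fold change -0.54), without overlap in either. FUT8 adds the core fucose. It ranged from 11.8 to 14.8 CPM (median 14) with R1881 and held 26.3, 24.6, 26.5, 26.7 and 25.5 CPM with enzalutamide, all above the highest R1881 library (log2 fold change 0.89, SE 0.056, adjusted p = 1.20e-11). MGAT5, which makes the β1,6 branch, was higher as well, from 79.1 ± 3.60 to 91 ± 4.19 CPM (log2 fold change 0.20, adjusted p = 1.51e-04).

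MGAT4A and MGAT4B catalyse the same branching step. MGAT4A ranged from 4.55 to 7.49 CPM (median 6.37) with R1881 and held 11.7, 13.5, 11.5, 13.1 and 11.4 CPM with enzalutamide, a log2 fold change of 0.94 (SE 0.087, adjusted p = 7.02e-09). MGAT4B ranged from 80.7 to 108 CPM (median 88.8) with R1881 against 82.4, 97, 87.9, 81.1 and 89.4 CPM with enzalutamide, with overlap and no call (log2 fold change -0.05, adjusted p = 0.505). The ratio of MGAT4A to MGAT4B was 0.0421 to 0.0927 with R1881 and 0.128 to 0.161 with enzalutamide. It was higher by 1.05 on the log2 scale (exact permutation p = 0.000666, adjusted p = 0.00117). Per kilobase of canonical transcript, the level with enzalutamide was 1.46 ± 0.117 CPM per kb for MGAT4A and 37 ± 2.68 CPM per kb for MGAT4B.

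The GALNT family showed differences in both directions within a single gene family, with 3 members lower, 2 higher and 2 not called. These shares (42.9% lower and 28.6% higher) were near those of all genes (32.7% and 29.8%). GALNT3 ranged from 36.7 to 43.4 CPM (median 42.4) with R1881 and held 111, 101, 111, 113 and 108 CPM with enzalutamide, a log2 fold change of 1.40 (SE 0.046, adjusted p = 1.99e-16). This was the largest rise of any member. GALNT10 ranged from 91.7 to 110.4 CPM (median 98.2) with R1881 and held 212, 209, 184, 194 and 201 CPM with enzalutamide, a log2 fold change of 1.01 (SE 0.042, adjusted p = 1.15e-14). GALNT7, which prefers peptides that already carry GalNAc, ranged from 47.2 to 57.8 CPM (median 54.2) with R1881 and held 25.9, 20, 22.9, 23.8 and 23.6 CPM with enzalutamide, a log2 fold change of -1.19 (SE 0.055, adjusted p = 6.22e-14). All 3 were without overlap between the treatments. GALNT12 was near the lower end of detection with enzalutamide. It ranged from 1.72 to 2.91 CPM (median 1.91) with R1881 and held 0.279, 0.326, 0.273, 0.359 and 0.157 CPM with enzalutamide, a median of 6 reads, so that its log2 fold change of -1.71 (SE 0.11, adjusted p = 1.58e-11) understates the ratio of the levels. GALNT2, a widely expressed initiator, went from 179 ± 12.2 to 119 ± 8.82 CPM (log2 fold change -0.58). GALNT1 (log2 fold change 0.01, adjusted p = 0.876) and GALNT11 (log2 fold change -0.05, adjusted p = 0.274) were not called.

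Levels were compared between genes per kilobase of the canonical transcript. With R1881 the GALNT levels were 40.4 ± 3.11 (SD, n = 10) for GALNT1, 40.4 ± 2.77 for GALNT2, 24.9 ± 0.995 for GALNT11, 16.6 ± 0.888 for GALNT10, 12.6 ± 0.727 for GALNT7, 12 ± 0.725 for GALNT3 and 0.743 ± 0.135 CPM per kb for GALNT12. GALNT1 and GALNT2 differed by less than their spread, as did GALNT7 and GALNT3. With enzalutamide GALNT1 had the highest mean at 40.6 ± 1.61 (SD, n = 5), followed by GALNT10 at 33.6 ± 1.88, GALNT3 at 31.7 ± 1.43, GALNT2 at 27 ± 1.99, GALNT11 at 24 ± 1.49, GALNT7 at 5.47 ± 0.507 and GALNT12 at 0.101 ± 0.0278 CPM per kb. GALNT10 and GALNT3 thus stood above GALNT2 with enzalutamide and below it with R1881. The length used matters for such levels, since per kilobase of all annotated exons GALNT1 was at 31.3 and GALNT2 at 23.2 CPM per kb with R1881. Of all 37 members, 30 lay above the median level of the 13829 genes with a length (7.86 CPM per kb), and the oligosaccharyltransferase ran from 20.4 ± 1.02 (TUSC3) to 277 ± 10.2 (RPN2) CPM per kb. UAP1 was the most abundant hexosamine enzyme with R1881 at 119.8 ± 5.68 CPM per kb. With enzalutamide its level of 22.4 ± 0.722 CPM per kb was near that of GNPNAT1 at 20.6 ± 0.832 and GFPT1 at 18.4 ± 1.08 CPM per kb, with PGM3 at 10.5 ± 0.412.

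**Figure D4:**
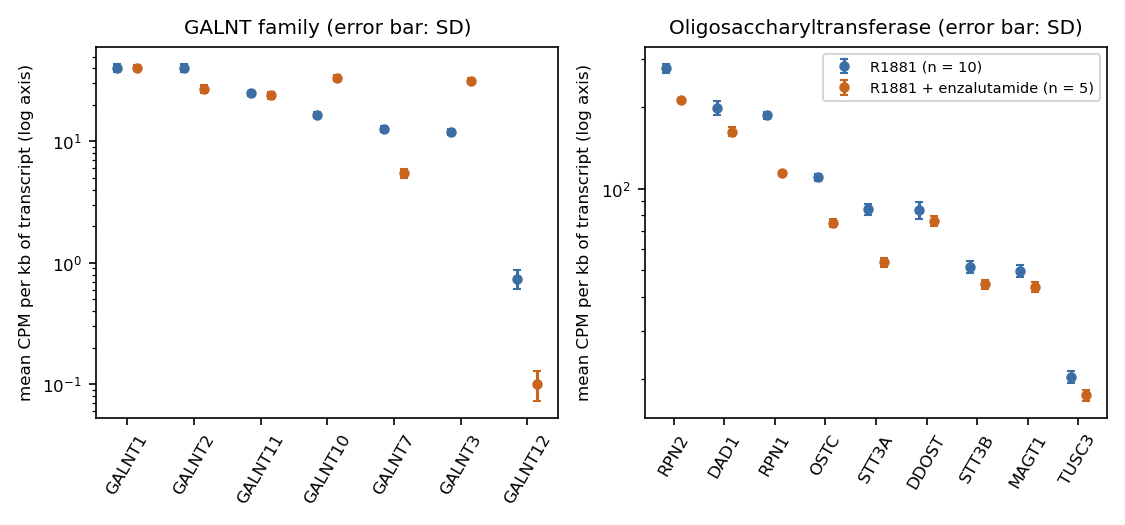
Mean level per kilobase of canonical transcript (log axis, error bar SD) of the GALNT family and of the oligosaccharyltransferase, with R1881 (n = 10) and R1881 + enzalutamide (n = 5). GALNT10 and GALNT3 stand above GALNT2 only with enzalutamide, while each oligosaccharyltransferase subunit has its lower mean with enzalutamide.

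Of the 4 enzymes of O-glycan cores and branches, 2 were lower and 1 was higher (50% and 25%, all genes 32.7% and 29.8%). GCNT1, which branches core 1 into core 2, ranged from 109.8 to 140.0 CPM (median 128) with R1881 and held 60.8, 51.3, 55.3, 59.7 and 58.1 CPM with enzalutamide, a log2 fold change of -1.15 (SE 0.052, adjusted p = 4.40e-14). GCNT2, the I-branching enzyme of poly-N-acetyllactosamine, ranged from 25.4 to 36.2 CPM (median 29.9) with R1881 and held 21.9, 18.3, 18.5, 22.1 and 22.7 CPM with enzalutamide, a log2 fold change of -0.54. Neither overlapped between the treatments, and the ratio of GCNT1 to GCNT2 went from a mean of 4.20 to 2.76, a log2 difference of -0.60 (exact permutation p = 0.000666, adjusted p = 0.00117). C1GALT1, the core 1 galactosyltransferase, ranged from 9.45 to 13.2 CPM (median 11.2) with R1881 and held 14.7, 11.9, 12.5, 12.9 and 14.5 CPM with enzalutamide. It was called higher with overlap (log2 fold change 0.23, adjusted p = 0.00791). Its chaperone C1GALT1C1 (COSMC) ranged from 36.6 to 43.1 CPM (median 40.5) with R1881 and held 39.5, 37.6, 40.7, 43.8 and 40.6 CPM with enzalutamide, and was not called (log2 fold change -0.0024, adjusted p = 0.967). The ratio of the enzyme to its chaperone was 0.277 with R1881 and 0.328 with enzalutamide (difference 0.24, exact permutation p = 0.00599, adjusted p = 0.00839, libraries overlapping), and it did not pass against R1881 series 51 to 55 alone (difference 0.21, exact permutation adjusted p = 0.0667).

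ST6GALNAC1 adds sialic acid to the first GalNAc of O-glycans and makes the sialyl-Tn antigen (chr17:76624761-76643786, minus strand, 9 exons in the canonical transcript). It ranged from 37.5 to 44.2 CPM with R1881 (median 42). The enzalutamide libraries held 2.47, 2.93, 2.64, 2.34 and 2.31 CPM, a median of 58 reads. The median was thus lower by 94.1%, every enzalutamide library lay far below every R1881 library, and the log2 fold change of -3.80 (SE 0.055, adjusted p = 2.57e-22) had rank 29 from the lowest of 17046 genes. Sialyl-Tn formation by ST6GALNAC1 and core 1 extension by C1GALT1 use the same acceptor. The ratio of ST6GALNAC1 to C1GALT1 was 2.98 to 4.68 with R1881 and 0.160 to 0.247 with enzalutamide, a log2 difference of -4.28 (exact permutation p = 0.000666, adjusted p = 0.00117). This pair too was chosen with earlier results known, and its p adds nothing to the difference of ST6GALNAC1 itself. ST6GAL1, which adds α2,6-linked sialic acid to N-glycan antennae, was not called, at 10.3 ± 0.796 CPM with R1881 and 9.94 ± 0.701 CPM with enzalutamide (log2 fold change -0.05, adjusted p = 0.521).

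**Figure D5:**
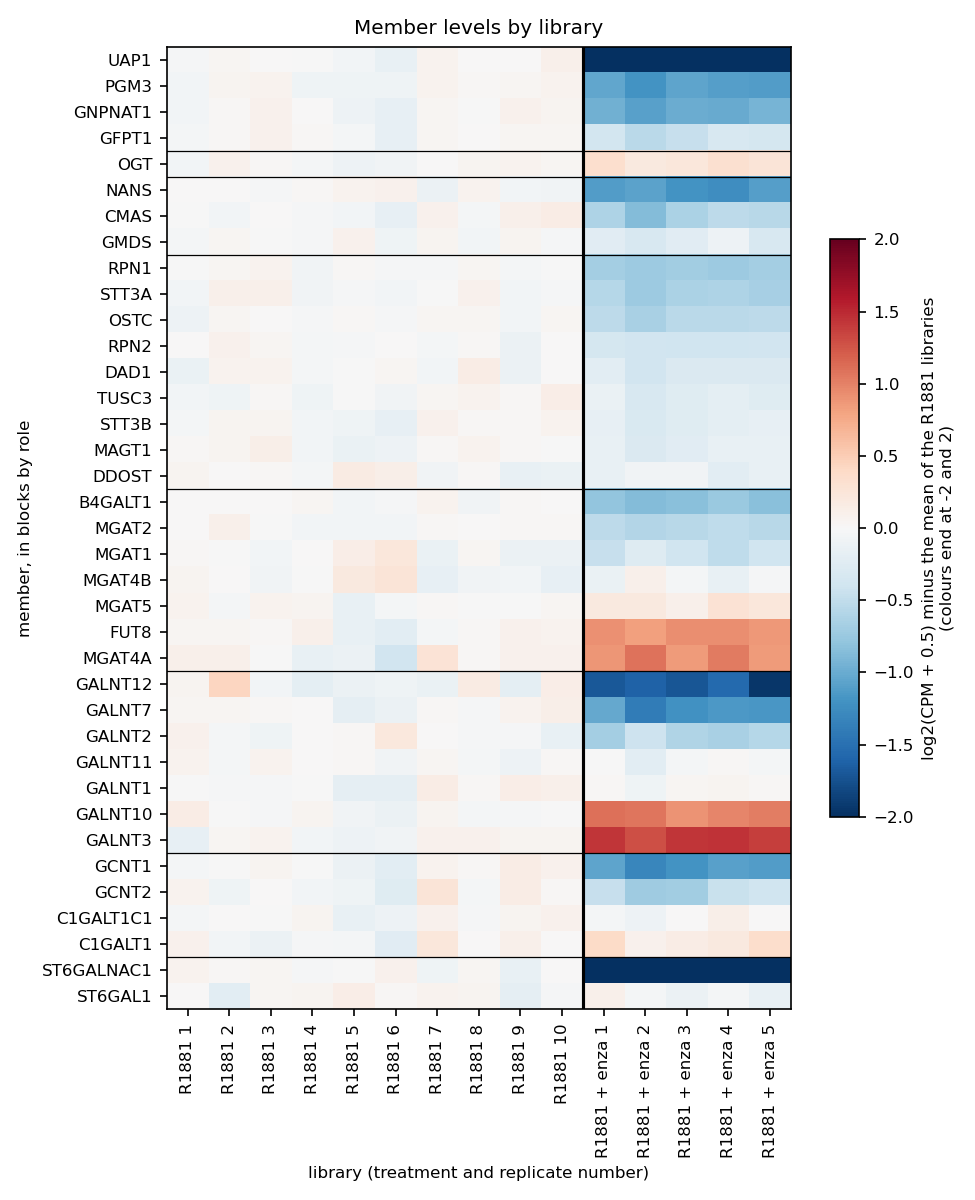
Member levels in each of the 15 libraries, as log2(CPM + 0.5) minus the mean of the R1881 libraries, with members in blocks by role and colours ending at -2 and 2. The 5 enzalutamide libraries look alike, with blue hexosamine, supply and oligosaccharyltransferase blocks and mixed colours among the branching and GALNT enzymes.

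Other genes of the same pathways were taken from lists of 145 genes that hold no member. Of these, 105 were in the table and tested, 53 were lower and 29 higher (all genes 32.7% and 29.8%). Assembly of the lipid-linked oligosaccharide, the substrate of the oligosaccharyltransferase, had 19 of 24 genes lower and 0 higher in limma (also 0 higher at an unadjusted p under 0.05), with a median log2 fold change of -0.27. The largest called difference there was at ALG2, a mannosyltransferase, from 79.3 ± 2.96 to 50.4 ± 3.25 CPM (log2 fold change -0.65). With library totals set to 1000000 the median log2 fold change of all genes was 0.0748, 15 of these genes were called lower and 1 higher, and edgeR called 16 lower and 1 higher. Of 3 further oligosaccharyltransferase subunits TMEM258 was lower (log2 fold change -0.21) and OST4 was not called (log2 fold change -0.09, adjusted p = 0.156). KRTCAP2 was higher with overlap (log2 fold change 0.26, adjusted p = 0.0102), and did not pass against R1881 series 71 to 75 alone (adjusted p = 0.0680) or with a block by title number (adjusted p = 0.0857).

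Of 17 other genes of sugar nucleotide supply, 10 were lower and 4 higher (all genes 32.7% and 29.8%). GMPPB, which makes GDP-mannose, went from 79.4 ± 7.93 to 33.8 ± 2.53 CPM (log2 fold change -1.22), and FPGT, which makes GDP-fucose from salvaged fucose, from 20.6 ± 2.04 to 28.8 ± 2.16 CPM (log2 fold change 0.48). A list of 7 genes of amino sugar salvage, O-GlcNAc removal and the isoenzymes GFPT2 and UAP1L1 had 1 gene lower and 3 higher (all genes 32.7% and 29.8%). The median log2 fold change of this list was 0.05. The lower gene was NAGK, the N-acetylglucosamine kinase of salvage (log2 fold change -0.22). The higher genes were GFPT2, OGA and GNPDA1, a glucosamine 6-phosphate deaminase (log2 fold change 0.23). Of 9 sugar nucleotide transporters 5 were lower and 2 higher (all genes 32.7% and 29.8%). The called ones ran from SLC35A2, the UDP-galactose transporter (log2 fold change -0.52), to SLC35A5 (log2 fold change 1.07).

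Among 10 other sialyltransferases in the table, 8 were higher and 1 was lower (all genes 29.8% and 32.7%). Their median log2 fold change was 0.70. ST8SIA4, a polysialyltransferase, rose from 2.26 ± 0.389 to 14.2 ± 1.06 CPM (log2 fold change 2.42, adjusted p = 5.74e-15). ST3GAL4 fell from 19.2 ± 1.34 to 15.2 ± 1.44 CPM (log2 fold change -0.33). Of 12 other GALNT genes listed 2 were in the table and both were higher (all genes 29.8%). GALNT18 went from 11 ± 1.31 to 19.8 ± 2.13 CPM (log2 fold change 0.82). The 3 other O-glycan core enzymes listed had no row.

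Some members share annotated exon bases with other genes. The largest overlaps on the opposite strand were with unnamed lncRNAs for MGAT2 (2469 bases), GNPNAT1 (1426 bases), GALNT2 (1029 bases) and GALNT12 (662 bases). Others of this size were PGM3 with DOP1A (1546 bases), FUT8 with FUT8-AS1 (824 bases) and NANS with TRIM14 (422 bases). Smaller ones included GCNT1 with PRUNE2 (262 bases). On the same strand, DDOST shared exon bases with PINK1-AS (427 bases), GALNT10 with MFAP3 (121 bases) and STT3A with CHEK1 (53 bases). The library kit keeps the strand, but the strand setting of the counting is not known from the sources used here, so reads of these bases may be assigned to either gene or to neither.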

How the data were processed

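Polyadenylated RNA was sequenced in 15 libraries (TruSeq Stranded mRNA kit, single-end). Per the labels and the methods, STAR served the authors for alignment to GRCh38 and featureCounts (Subread) for counting. The submitters' processing notes also name bcl2fastq 2.17. The sources used here do not give the gene annotation, the strand setting or the rule for keeping genes. The deposited signal per gene is called CPM in the methods, but the columns sum to between 985580 and 1078567. These sums were 1053406 to 1078567 with R1881 and 985580 to 1008992 with enzalutamide. All values (100%) were whole multiples of 1 read within a tolerance of 0.01 reads, which gave 15830745 to 25416052 reads per library. No column lacked a sample. The design assumed CPM, and the deposited signal was tested on that scale.

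Log2(CPM + 0.5) was fitted with limma 3.58.1 (mean-variance trend) in R 4.3.3 over 17046 genes that reached a mean of 0.5 CPM, with treatment as the only term, and p-values were Benjamini-Hochberg adjusted over all of them. Fold changes on this scale understate those of low genes. The fits were tested on simulated data with known changes. Ratios within a library were tested by exact permutation over the 15 libraries (SciPy 1.17.1), adjusted over 7 pairs. edgeR 4.0.16 and DESeq2 1.42.0 on the recovered reads, other scalings, pseudocounts, filters, replicate blocks, single R1881 series and each library left out were the alternatives. Gene lengths and positions came from GENCODE release 44 on GRCh38, which matched 13829 of the 17272 genes (80.1%).

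The members, roles, pairs and wider lists were chosen with earlier results of these data known. Values by library were given for the hexosamine enzymes, OGT, the paired members and the 8 others with the largest absolute log2 fold change. From each wider list the lowest and the highest called gene of at least 5 CPM on average was named. Groups follow the labels of the libraries, which give 10 with R1881 and 5 with enzalutamide, whereas the methods exchange these numbers. The value of 1 luminal marker is not reported here.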

Additional observations from a re-analysis of the deposited data

Results flagged for a closer look

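Dixon's criterion, which singles out about 1 group in 20, was run on 90 groups of values. These were each member, each paired ratio and the reads per library, in each treatment. A single library stood apart from its group in 6, where chance would give about 4.5. With R1881, GFPT1 was lowest in replicate 6 at 189.4 CPM, with the next library at 205.6 CPM. MGAT5 was lowest in replicate 5 at 70.88 CPM, with the next at 77.02 CPM. GALNT12 was highest in replicate 2 at 2.909 CPM, with the next at 2.343 CPM. With enzalutamide, replicate 2 was lowest for OSTC at 74.28 CPM (next 79.69 CPM) and for GALNT1 at 150.1 CPM (next 162.6 CPM). The number of reads was highest in enzalutamide replicate 5, at 25416052, with the next library at 22329140 reads. Leaving out any of these libraries changed no call of the member named.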

How the results depend on the processing

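All 32 called members kept their direction under every alternative run, and 30 to 32 kept their call. With a single library left out, 24 to 25 members were lower and 7 were higher. DDOST lost its call with TMM factors (adjusted p = 0.0506), with library totals set to 1000000 (0.527), in edgeR (0.132), against R1881 series 51 to 55 alone (0.232) and without enzalutamide replicate 4 (0.0682). C1GALT1 lost its call against series 51 to 55 alone (0.1005), where 0 of the O-glycan core enzymes were then higher in limma. With a minimum of 1.5-fold, added after the data had been seen, 12 members were lower and 4 higher. The ratio of C1GALT1 to C1GALT1C1 lost its call against series 51 to 55 (difference 0.207, adjusted p = 0.0667). The ratio of OGT to OGA lost its call there (-0.032, adjusted p = 0.238) and without enzalutamide replicate 5 (-0.118, adjusted p = 0.0583), and with a library left out it ranged from -0.144 to -0.114. The causes were not tested. Library totals set to 1000000 moved the share of lower calls among all calls from 52.3% to 39.3%. The wider lists had 41 to 57 genes lower and 25 to 34 higher over the alternatives. Replicate numbers gave no clear pairing of the libraries, since 0 of 5 title pairs and 2 of 10 pairs by last digit of the library number correlated over 0.1. Those 2 pairs were at 0.469 and 0.668, and another pair by last digit was at -0.417, so shared effects in single pairs remain possible. A replicate block by either number kept 32 of 32 member calls, with 5268 lower and 4775 higher genes by title number and 5628 and 5092 by last digit, against 5577 and 5083 without a block. GALNT12, with a median of 6 reads with enzalutamide, is limited by depth.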

Other observations

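Enzymes that trim N-glycans and check folding differed in both directions, with 7 of 17 lower and 6 higher (limma, adjusted p under 0.05; all genes 32.7% and 29.8%). EDEM3, which removes mannose from misfolded glycoproteins, fell from 192 ± 11.3 CPM (SD, n = 10) to 69.1 ± 3.93 CPM (n = 5), a log2 fold change of -1.47. MAN1A1, a Golgi mannosidase that trims the glycan before the first complex antenna is started, rose from 2.08 ± 0.483 to 13.1 ± 0.916 CPM, a log2 fold change of 2.42. Of 9 other branching and galactosyltransferases, 5 were lower and 1 was higher (all genes 32.7% and 29.8%). B3GNT2, which extends poly-N-acetyllactosamine, fell from 20.3 ± 1.74 to 10.2 ± 1.20 CPM (log2 fold change -0.96), while B4GALT6, a lactosylceramide synthase, was at 9.30 ± 0.986 and 10.7 ± 0.760 CPM (log2 fold change 0.20, adjusted p = 0.0278) and lost its call in 5 alternatives (adjusted p from 0.0613 to 0.197). Of 7 other fucosyltransferases 4 were lower and 2 higher (all genes 32.7% and 29.8%). Among those of at least 5 CPM on average, the lowest call was FUT11 (log2 fold change -0.35) and the highest FUT10 (log2 fold change 0.58). At lower levels FUT4 (log2 fold change -0.40) and FUT9 (log2 fold change 0.87) lay beyond these.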
